A study of Rattus norvegicus with 8 samples.

Results

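Skeletal muscle nuclei were a small population in single-nucleus RNA libraries of rat nodose ganglia, chosen by 2 transcripts alone. A nucleus was taken as a muscle nucleus when its unique molecular identifiers (UMIs, each counting 1 captured RNA molecule) of Ttn and Neb summed to at least 10 and to at least 1% of all its UMIs. Of 36741 nuclei, 471 met this rule, or 1.28%. Ttn encodes titin and Neb nebulin, the giant proteins that span the thick and the thin filaments of striated muscle.

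The nodose ganglion holds the cell bodies of vagal sensory neurons. The rats were Long Evans, 8 weeks old and experimentally naïve, with 18 males and 18 females. Ganglia of 1 side from 6 rats were combined in each pool, flash-frozen, and their nuclei fixed and barcoded with Parse Evercode kits (version 2) in 8 sublibraries. There were 12 pools in 4 groups, 3 for each sex on each side. They are written here as ML1 to ML3 (male, left), MR1 to MR3 (male, right), FL1 to FL3 (female, left) and FR1 to FR3 (female, right). No group carried a treatment or an altered allele. With 18 rats per sex and 6 per pool, left and right pools of a sex would draw on the same rats, whom the labels do not pair. The pool is the replicate in every test, and p-values measure the spread between pools.

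A skeletal muscle fibre is 1 long cell with many nuclei, and a nuclear library sees each nucleus without its fibre. Contraction rests on the sarcomere, in which myosin thick filaments pull on actin thin filaments anchored at the Z disc, and on calcium released from the sarcoplasmic reticulum through the ryanodine receptor. Adult fibres are classed by the myosin heavy chain they make: Myh7 in slow fibres, Myh2, Myh1 and Myh4 in fast fibres of rising speed. Nuclei under the motor nerve ending and at the tendon switch on gene sets of their own, as do the satellite (stem) cells marked by Pax7.

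The sequences of 3 promoters are shown because the results turn on these genes. Myh4 led most muscle nuclei among the 3 myosins measured. Myh2 had 0 UMIs in the muscle nuclei of the larger left pools. Acta1, skeletal actin, was lower in the muscle nuclei of the right pools. Each sequence is the stretch of 250 bases before the RefSeq gene start in build GRCr8, read 5′ to 3′ on the gene's strand. Myh4 lies at chr10:52421898-52422147 on the plus strand, Myh2 at chr10:52355489-52355738 on the plus strand and Acta1 at chr19:68784195-68784444 on the minus strand.
Myh4: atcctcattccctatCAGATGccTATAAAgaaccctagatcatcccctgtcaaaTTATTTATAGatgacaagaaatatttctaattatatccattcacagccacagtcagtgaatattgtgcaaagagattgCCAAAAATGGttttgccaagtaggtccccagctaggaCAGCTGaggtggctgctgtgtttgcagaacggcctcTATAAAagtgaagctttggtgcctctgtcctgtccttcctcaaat
Myh2: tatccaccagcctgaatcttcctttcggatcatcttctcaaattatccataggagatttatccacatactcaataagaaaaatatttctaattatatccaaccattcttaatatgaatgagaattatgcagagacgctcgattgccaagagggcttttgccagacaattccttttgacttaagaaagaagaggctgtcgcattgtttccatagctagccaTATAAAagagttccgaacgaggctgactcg
Acta1: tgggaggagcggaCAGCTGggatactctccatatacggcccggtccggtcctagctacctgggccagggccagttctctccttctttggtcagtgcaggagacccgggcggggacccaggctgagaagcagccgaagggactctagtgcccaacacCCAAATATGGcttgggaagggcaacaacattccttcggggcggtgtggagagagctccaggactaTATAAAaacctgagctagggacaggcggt
Capitals mark matches to the E-box CANNTG (the letters read by MyoD-family factors), the MEF2 motif, the CArG box (read by serum response factor) and TATAAA. The E-box, MEF2 and CArG motifs read the same on both strands, and TATAAA was searched on the gene's strand. None of the matches in these windows overlapped. Myh4 held an E-box 235 and 81 bases before the start, a MEF2 match at 196, a CArG match at 118 and TATAAA at 227 and 45. Acta1 held an E-box at 237, a CArG match at 94 and TATAAA at 29. In the Myh2 window TATAAA at 30 was the sole match. Over 33469 RefSeq promoter windows of this length, 65.5% held an E-box, 2.96% a MEF2 match, 1.50% a CArG match and 8.05% TATAAA. A match describes letters and shows no binding.

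The rule fixed the levels of Ttn and Neb, which are given as a description. The median muscle nucleus had 42 Ttn and 8 Neb UMIs, 50 in sum, or 2.54% of its RNA, and the highest reached 530 UMIs and 30.5%. Neb was missing from 10 muscle nuclei and Ttn from 0. Near the limits, 21 muscle nuclei had 10 to 12 UMIs. Just outside, 1 nucleus had 7 to 9 UMIs at 1% or more, and 68 had at least 10 UMIs at 0.8% to 1% of their RNA. In all, 1009 nuclei had at least 10 UMIs, and 538 of them stayed under 1%, with a median depth of 4655.5 UMIs. Muscle nuclei had a median of 1378 UMIs and 947 genes, against 2680 UMIs and 1592 genes over all nuclei.

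Y-linked transcripts went against the label in 2 pools before any comparison by sex. Kdm5d and Eif2s3y summed to 2.13 counts per 1000000 UMIs (CPM) in ML1 and to 87.9 in FL1. The other male-labelled pools had 83.4 to 90.7 CPM and the other female-labelled pools 1.51 to 3.12. FL1 held 31 of the muscle nuclei and ML1 held 2. Sexes are therefore written as male-labelled and female-labelled, and results by sex are also given without both pools. Comparisons by side use these labels too, as a term of the fit or by permuting within sex. Across sublibraries, 1865 of 34798 barcode combinations occurred in at least 2 sublibraries, with 3808 nuclei, 62 of them muscle nuclei. Each sublibrary held 51 to 66 muscle nuclei, 1.12% to 1.49% of its nuclei.

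Most muscle nuclei came from 1 pool. FR2 held 334 muscle nuclei, 7.33% of its 4558 nuclei (95% Clopper-Pearson interval 6.59 to 8.12) and 70.9% of all muscle nuclei. The other right pools had 57 of 3013 in MR1 (1.89%), 19 of 4618 in MR2 (0.411%), 3 of 2675 in MR3 (0.112%), 1 of 4849 in FR3 (0.0206%) and 0 of 2186 in FR1. Among left pools there were 31 of 3076 in FL1 (1.01%), 12 of 2029 in ML3 (0.591%), 9 of 2338 in ML2 (0.385%), 3 of 1738 in FL2 (0.173%), 2 of 3457 in ML1 (0.0579%) and 0 of 2204 in FL3. A count of 0 allows up to 0.137% in FR1 and 0.136% in FL3 (3 nuclei of each total, a limit apart from the interval). Intervals and limits cover counting error only. FR2 stood alone above the rest, and left and right pools otherwise overlapped. Its 4 first-round wells held 52 to 104 muscle nuclei each, 5.59% to 8.39% of their nuclei, and in every sublibrary its share was 6.29% to 8.97%.

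**Figure D1:**
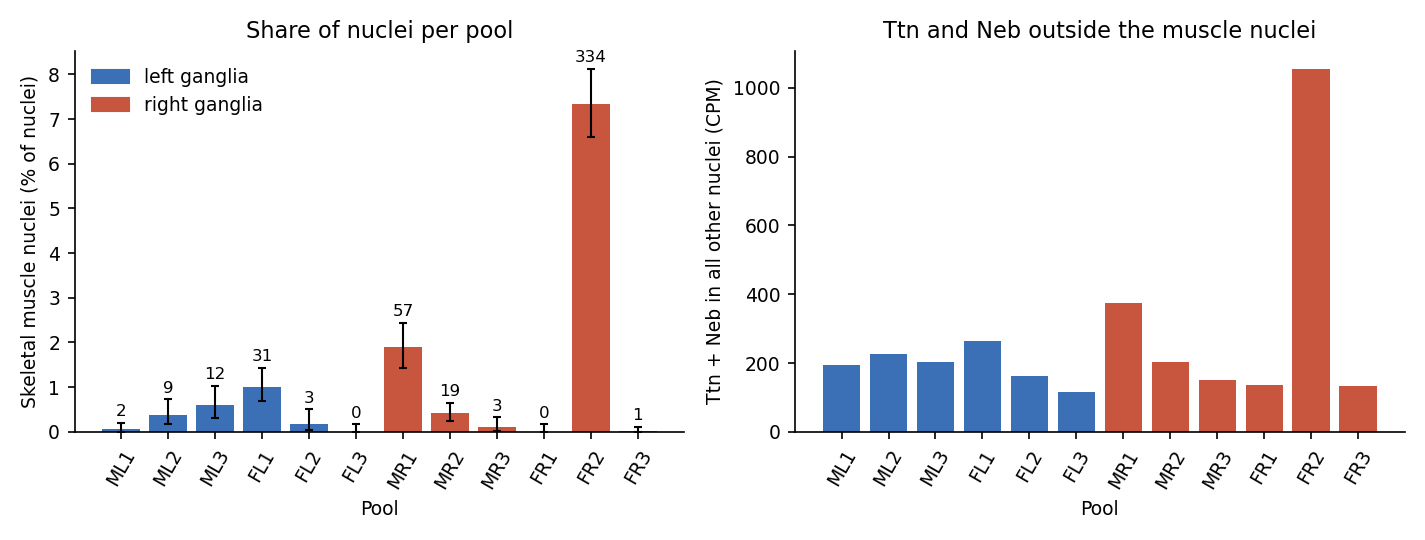
Left, muscle nuclei as a percentage of all nuclei of each of the 12 pools (bars, coloured by side), with exact 95% binomial intervals (lines) and the number of muscle nuclei above each bar. Right, the summed Ttn and Neb level in all other nuclei of the pool, in CPM. FR2 is the highest in both panels, at 7.33% and 1055 CPM, and MR1 is next at 1.89% and 375 CPM.

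The share did not separate the sides or the labelled sexes. It averaged 1.63% ± 2.88 (SD, n = 6) in right pools and 0.369% ± 0.382 (SD, n = 6) in left pools, a difference of 1.26 percentage points (exact two-sided permutation test, p = 0.425, adjusted p = 0.760 over the 2 factors). Female-labelled pools averaged 1.42% ± 2.92 and male-labelled pools 0.575% ± 0.675 (SD, n = 6 each). That difference of 0.847 points had an exact permutation p of 0.760 (adjusted p = 0.760), where 400 relabellings allow 0.005 at the lowest. Without FR2 the difference by side fell to 0.118 points and the one by sex turned to -0.335. Without ML1 and FL1 the difference by sex was 0.826 points (exact permutation p = 1). In all nuclei outside the muscle nuclei, Ttn and Neb summed to 1055 CPM in FR2, 375 in MR1, 265 in FL1 and 227 in ML2, against 116 to 203 in the other pools. Free muscle RNA and muscle nuclei below the limits cannot be told apart here.

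The label of skeletal muscle was checked on genes the rule did not use, though in the same nuclei, so that the values are a description. They are taken over the 5 pools with at least 10 muscle nuclei (ML3, FL1, MR1, MR2 and FR2), which held 453 of the 471. Folds compare the mean CPM of muscle nuclei with that of the pools' other nuclei after adding 1 CPM to both. Of 3981 genes with at least 50 CPM in muscle nuclei, 76 (1.91%) were at least 10-fold higher than in other nuclei and 180 (4.52%) at least 2-fold. The median gene was at 0.936-fold, and 27 genes were at or below a fold of 0.5. The gene lists below are counted without the limit of 50 CPM, so these shares are not a matched background for their counts. Each pool counts alike in the means, whatever its depth.

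The 20 genes with the largest folds, Ttn and Neb set aside, ran from 210-fold (Ca3) to 75.8-fold (Tpm2), and each was higher in 5 of 5 pools. Myh4, the fastest myosin heavy chain, had the most UMIs of them, with no scaling for gene length. Its level was 20762 CPM in ML3, 14641 in FL1, 9888 in MR1, 6828 in MR2 and 8056 in FR2, on average 12035 ± 5712 (SD, n = 5) against 78.2 in other nuclei, or 152-fold. All 5 pools lay far above the other nuclei and differed among themselves, with both left pools highest. Fast troponin T, Tnnt3, was at 3793, 2106, 1796, 1918 and 1821 CPM in the same order (120-fold), and Xirp2, an actin-binding protein of muscle, at 4668, 1490, 1311, 1075 and 1312 CPM (129-fold). For these 2 genes ML3 alone stood high and the other pools lay close together. Ckm, the muscle creatine kinase that regenerates ATP, averaged 1039 ± 498 CPM (132-fold). H19, a noncoding RNA from an imprinted locus, averaged 1539 ± 1018 CPM (154-fold). The identifier listed as AABR07005775.1 averaged 1664 ± 996 CPM (129-fold) and has no symbol in the gene list.

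Sarcomere genes stood far above other nuclei, those of the fast form most. Of the thick filament and M band genes in the gene list, 9 of 18 were at least 10-fold higher than in other nuclei, of the thin filament genes 11 of 16, and of the Z disc and costamere genes 15 of 24. Mybpc2, the fast myosin-binding protein C, was 134-fold higher and Mybpc1, its slow paralog, 29.2-fold. Acta1, skeletal actin, was 178-fold higher, while Actc1, its cardiac paralog, averaged 26.4 ± 44.3 CPM. Actn3, the fast Z-disc actinin, was 159-fold higher and Actn2, its partner in all striated fibres, 15.3-fold. Des, the intermediate filament protein desmin, was 52.4-fold higher and Tcap, the titin cap, 51.2-fold. Tnnc1, the slow and cardiac troponin C, had 0 UMIs.

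Calcium handling followed. Of 14 genes of excitation-contraction coupling in the gene list, 7 were at least 10-fold higher. Ryr1, the skeletal ryanodine receptor that releases calcium, was at 1459 CPM in ML3, 773 in FL1, 688 in MR1, 814 in MR2 and 817 in FR2, or 75.7-fold above other nuclei. Trdn, which anchors the release complex, averaged 1047 ± 520 CPM (76.9-fold), and Cacna1s, the voltage sensor of the tubule membrane, 101 ± 19.2 CPM (48.4-fold). Casq1, the calcium-binding protein of fast-fibre stores, was 117-fold higher. Atp2a2, the calcium pump of slow fibres and many other cells, was at 176 ± 40.6 CPM, below the 218 of other nuclei. Sln, a pump inhibitor, had 2 UMIs.

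Metabolic genes were carried in 9 of 20 cases at 10-fold or more. Pygm, muscle glycogen phosphorylase, was 84.1-fold higher, Eno3, muscle enolase, 43.0-fold, and Pgam2, muscle phosphoglycerate mutase, 41.9-fold. Ampd1, the adenosine monophosphate deaminase of muscle, was 20.2-fold higher. Mb, myoglobin, which stores oxygen in oxidative fibres, averaged 212 ± 229 CPM, with the spread larger than the mean. Membrane genes of the dystrophin complex separated these nuclei poorly. Of 15 genes 4 were at least 2-fold higher, and Dmd, dystrophin, was at 1.60-fold, with 952 CPM in other nuclei.

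**Figure D2:**
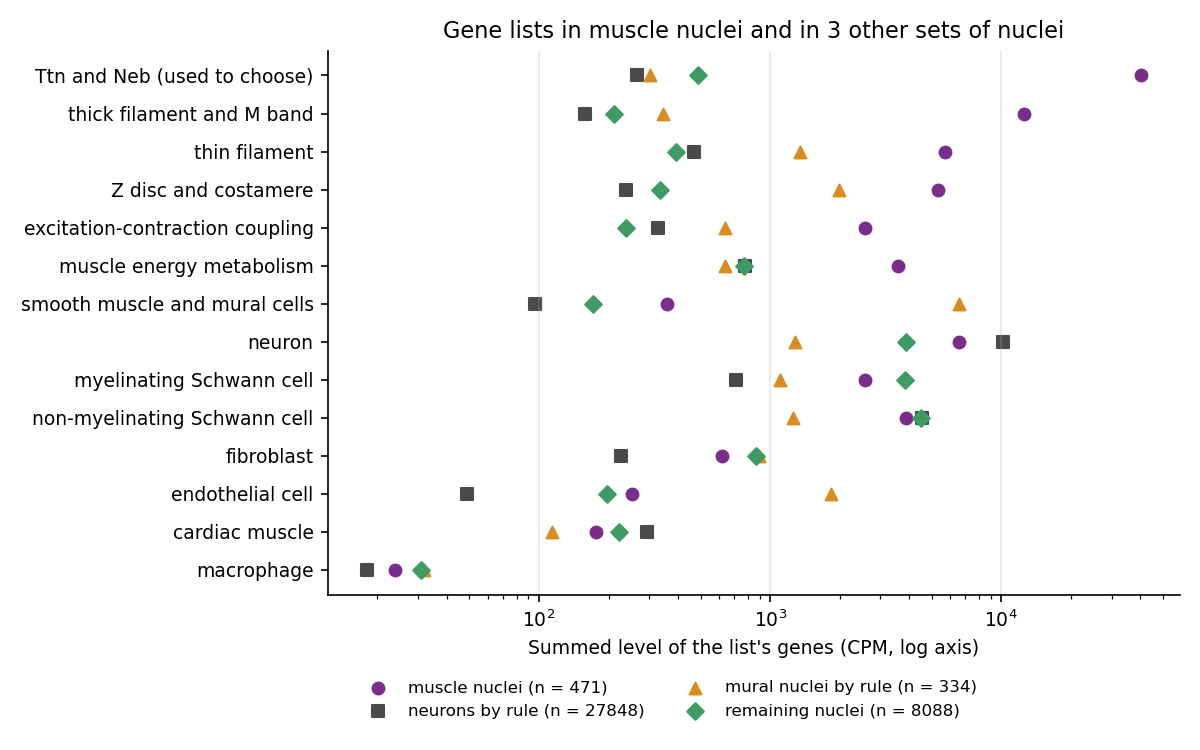
Summed level of each gene list, in CPM on a log axis, in muscle nuclei (circles) and in neurons, mural nuclei and remaining nuclei of all 12 pools. Muscle nuclei lie highest on the sarcomere, coupling and metabolism lists, and between neurons and remaining nuclei on the neuron list (6586 CPM against 10169 and 3879).

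Of 20 myogenic and fibre type transcription factors in the gene list, 8 were at least 2-fold higher than in other nuclei and 2 at least 10-fold, Tbx15 and Myod1, the latter on 2 UMIs. Tbx15, a T-box factor of fast fibres, was at 131 ± 96.6 CPM (21.4-fold), and Mef2c, a MADS-box factor of muscle, at 385 ± 163 CPM (6.26-fold), both higher in 5 of 5 pools. The determination factors were near 0, with Myod1 at 2 UMIs, Myf6 at 7, Myog at 1 and Myf5 at 0. Of 45 positional genes (all Hox genes and factors of head muscle), none was 10-fold higher and 30 had no UMI in the muscle nuclei. Barx2, a homeobox gene of muscle progenitors, had 24 UMIs, and over the 5 pools it was detected in FR2 alone.

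Genes of other muscle populations were mostly rare or not above the other nuclei, with some stem cell genes higher in the mean over pools. Shares of nuclei with a UMI are compared after thinning every nucleus to 779 UMIs, the lowest depth in the series. Chrne, the adult subunit of the acetylcholine receptor at the nerve ending, was seen in 1 muscle nucleus (0.0979% after thinning, against 0.366% of neurons). None of 15 junction genes was 2-fold higher than in other nuclei. Col22a1, a collagen of the tendon junction, was seen in 9 muscle nuclei (0.837% after thinning, against 0.646% of neurons), and none of 7 tendon-junction genes was 2-fold higher. Pax7 was seen in 4 muscle nuclei (0.307% after thinning, against 0.0218% of neurons). Of 7 muscle stem cell genes 3 were at least 2-fold higher. Their list summed to 94.8 CPM, against 71.6 in neurons, 184 in mural and 119 in remaining nuclei. By pool it was at 232 CPM in MR2, against 90.0 in the other nuclei, and at 97.2 against 76.5 in ML3. In MR1, FL1 and FR2 it was at 89.0, 78.4 and 92.0 CPM, against 91.6, 83.3 and 94.2 in the other nuclei. At least 2-fold higher were also 1 of 6 muscle spindle genes and 2 of 12 genes of denervation and regeneration. Myh3 and Myh8, the embryonic and perinatal myosins of developing or regenerating fibres, had 4 and 0 UMIs. Median depths before thinning were 1378 UMIs in muscle nuclei and 3420 in neurons.

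Markers of other cell types were measured in the same nuclei. The neuron list (11 genes) summed to 6586 CPM in muscle nuclei, against 10169 in 27848 nuclei taken as neurons (at least 10 UMIs over the list), 1287 in 334 mural nuclei (at least 5 UMIs over the smooth muscle and mural list) and 3879 in the remaining 8088. Of the muscle nuclei, 175 (37.2%) had at least 10 UMIs of the neuron list and 19 had none. The 296 muscle nuclei with fewer neuron UMIs (median depth 1178.5 UMIs) had 3011 CPM of the neuron list and 18922 CPM of the thick filament list, against 12533 CPM of the latter in all muscle nuclei. By pool the neuron list was at 4765 CPM in ML3, 11247 in FL1, 8068 in MR1, 7235 in MR2 and 5675 in FR2. The myelinating Schwann list was at 972, 1053, 2816, 2383 and 2766 CPM in that order, so it was higher in the right pools. In the other nuclei of these pools it was at 860, 812, 1232, 1016 and 1594 CPM, also higher in the right pools. Smooth muscle and mural genes summed to 358 CPM, above the 96.0 of neurons and the 172 of remaining nuclei, with 1 of 9 genes at least 2-fold higher than in other nuclei and Cnn1 at 0. Mural nuclei, chosen by that list, had 6576 CPM. Endothelial genes summed to 252 CPM, against 49.0 in neurons, 197 in remaining and 1841 in mural nuclei, and 4 of 5 were at least 2-fold higher than in other nuclei. Fibroblast genes summed to 616 CPM, between the 227 of neurons and the 867 of remaining nuclei, and satellite glia genes to 348 CPM, against 424 and 450. Non-myelinating Schwann genes summed to 3862 CPM, against 4519 and 4489. Cardiac genes summed to 177 CPM, below the 292 of neurons and the 221 of remaining nuclei, and Nppa, Nppb, Nkx2-5, Gata4 and Myl4 were at 0. Macrophage genes summed to 23.7 CPM (18.0 in neurons), and Adipoq, Plin1, Cidec and Lep were at 0. Doublets, free RNA and fragments of other cells were not told apart, and their part in any result below was not tested.

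Fibre type was read from the myosin heavy chains, which the rule did not use. Myh4 took 8526 of the 8960 UMIs of Myh2, Myh4 and Myh7 (95.2%), Myh2 took 411 and Myh7 took 23. Myh4 was detected in 450 of the 471 nuclei. After thinning this was 90.7%, against 3.25% of neurons, 4.20% of mural and 4.80% of remaining nuclei. Myh2 was detected in 112 nuclei (16.9% after thinning, against 0.218% of neurons), and Myh7 in 10 (1.66% against 0.0294%), with at most 8 UMIs in a nucleus. Slow fibre genes stayed low beside them: Tnnt1 had 21 UMIs, Tnni1 6, Myl3 5, Myl2 4 and Tnnc1 0. Of the slow list, 2 of 12 genes (Myh7 and Tnnt1) were at least 10-fold higher than in other nuclei, and of the fast list 9 of 10.

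Single nuclei fell mostly on 1 myosin. Of 415 nuclei with at least 3 UMIs over Myh2, Myh4 and Myh7, 389 had at least 60% from Myh4, 13 at least 60% from Myh2, 0 at least 60% from Myh7, and 13 were mixed. The share is a range rather than a type, and 11 nuclei lay between 50% and 70% Myh2. The 13 nuclei led by Myh2 were 9 in FR2, 3 in MR2 and 1 in FR3. In 103 of the 112 nuclei with Myh2, Myh4 was detected too. Myh1 has no entry by symbol in the gene list, so fibres that use it could not be seen. Shares and leading myosins are taken over Myh2, Myh4 and Myh7 alone. A nucleus that uses Myh1 could therefore count as led by 1 of these.

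The nuclei led by Myh2 also differed in their partners, chosen here after their values were seen and given without a test. In the 3 pools that had them, 13 nuclei led by Myh2 held 22895 UMIs and 288 led by Myh4 held 570522. Ca3, a carbonic anhydrase of muscle, had 0 UMIs in the first and 255 in the second (447 CPM). At that level 10.2 UMIs would fall in the nuclei led by Myh2. Mybpc2 had 0 UMIs against 182, where 7.30 would fall, and Actn3 had 0 against 40, where 1.61 would fall and depth sets the limit. Mybpc1 stood at 1354 CPM in nuclei led by Myh2 and 715 in those led by Myh4. Fast troponins were shared: Tnnt3 was at 2359 and 1932 CPM, and Tnnc2 at 568 and 382. A count of 0 there allows up to 131 CPM. Of the 22895 UMIs, 6415 came from 1 nucleus in MR2, which had 72 UMIs of the neuron list. Some nuclei led by Myh2, such as 1 in MR2 with 3 Myh2 and 0 Myh4 UMIs, were placed on the lowest count allowed.

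Among muscle nuclei, Myh2 came almost wholly from right pools. In MR1 it had 19 of 1245 myosin UMIs (1.53%), in MR2 45 of 281 (16.0%) and in FR2 335 of 5430 (6.17%). The larger left pools had 0 of 427 in ML3 and 0 of 1307 in FL1, which allow up to 0.703% and 0.230% (3 UMIs of each total). Of the smaller pools, ML2 on the left had 2 of 79, FR3 on the right had 10 of 15, and ML1, FL2 and MR3 had 0 of 45, 95 and 36. The groups did not overlap among the 5 pools, while ML2, with 2.53%, lay above MR1.

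**Figure D3:**
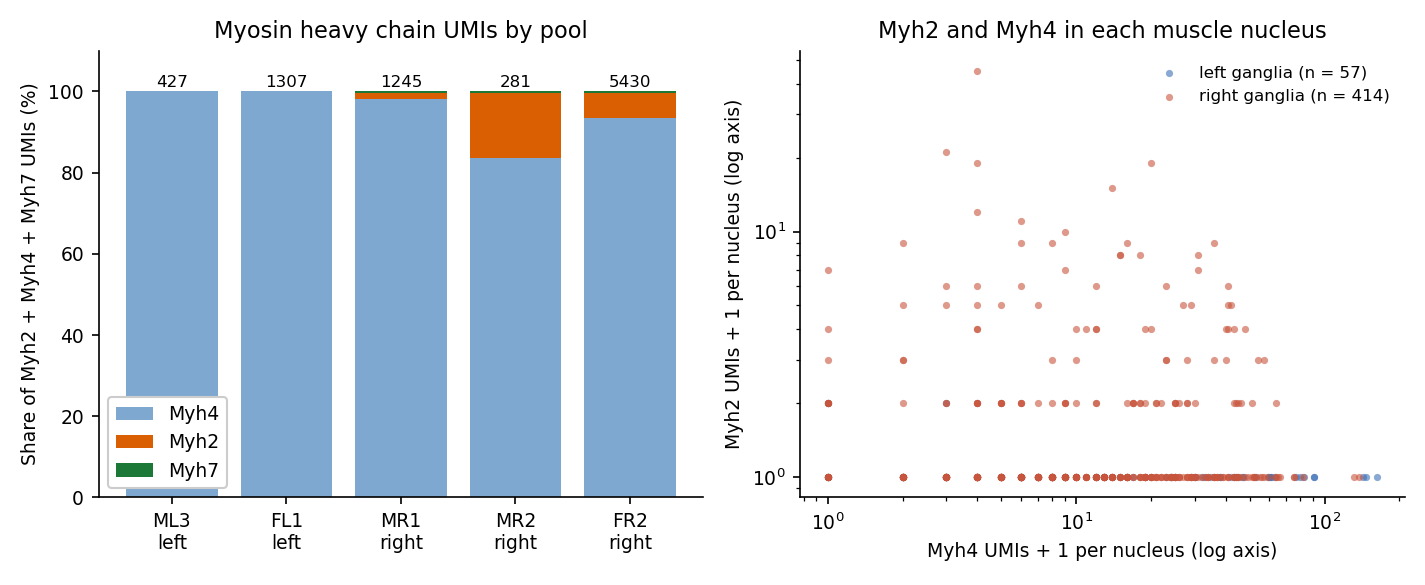
Left, the share of Myh4, Myh2 and Myh7 among their summed UMIs in the muscle nuclei of the 5 pools with at least 10 of them, with the summed UMIs above each bar. Right, Myh2 against Myh4 UMIs in each of the 471 muscle nuclei (1 added to both, log axes), coloured by side. Myh2 takes 1.53% to 16.0% in the right pools and 0 in ML3 and FL1, and Myh7 stays at or below 0.356%.

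As a share of the 3 myosins, Myh2 averaged 7.90% ± 7.40 (SD, n = 3) in right pools and 0% (n = 2) in left pools. An exact permutation test within sex gave p = 0.333 (adjusted p = 0.5 over 3 genes and 2 factors), and with 5 pools and 6 relabellings no p below 0.167 was possible. Myh4 averaged 91.8% ± 7.42 against 100% and Myh7 0.324% ± 0.0307 against 0%, with exact permutation p-values of 0.333 and 0.167. None of the shares passed by sex (exact permutation p from 0.333 to 1). By sex the Myh2 and Myh4 differences changed direction when MR2 or FL1 was left out.

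Genes were also compared between sides and labelled sexes by summing the UMIs of the muscle nuclei in each of the 5 pools (3 right, 2 left) and fitting edgeR's quasi-likelihood test to 3234 genes. By side 16 genes were called at an adjusted p under 0.05, 8 higher in right pools (0.247% of genes tested) and 8 lower (0.247%), and 165 had an unadjusted p under 0.05. For 13 of the 16 the sides did not overlap, in the same 5 pools that chose these genes. The share of all tested genes without overlap is not given here, so this count is no support for the calls. DESeq2 called 3 (Ca3, Acta1 and Actn3), all lower in right pools. The fit leaves 2 residual degrees of freedom, and FR2 holds most of the UMIs. Its sex term takes FL1 as female-labelled, so calls by side depend on that label too. A fit with FL1 as male was not run. Leaving out FL1, alone or with ML1, gave the same fit, because ML1 was in no fit. Counts of alternatives below take that fit 2 times. As a description, Ttn and Neb, which chose the nuclei, summed to 81105 CPM in ML3, 40798 in FL1, 34657 in MR1, 31934 in MR2 and 40420 in FR2. The neuron list, which the rule did not use, was lowest in ML3 and highest in FL1, both left pools. As given above, the myelinating Schwann list was higher in all 3 right pools than in both left pools. This held in muscle nuclei and in the other nuclei.

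The 8 genes lower on the right were Ca3, Acta1, Actn3, Casq1, Myl1, Mybpc2, H19 and ENSRNOG00000006471, of which Actn3 and Mybpc2 were on the fast fibre list. Ca3 was at 2869 CPM in ML3 and 1490 in FL1, against 526 in MR1, 465 in MR2 and 389 in FR2. The sides did not overlap, and the right pools lay close together. The fitted log2 fold change was -2.22 ± 0.33 (SE, edgeR adjusted p = 3.2e-08), and Ca3 was called under 12 of 12 alternatives. The small left pool ML2, outside this fit, had 244 CPM from 4 UMIs, below every right pool. Acta1 was at 3404 and 2352 CPM in ML3 and FL1, against 1036, 930 and 698 in MR1, MR2 and FR2. It too did not overlap (log2 fold change -1.76 ± 0.34, edgeR adjusted p = 1.1e-04), and ML2 had 733 CPM. With ML2 in the fit its edgeR adjusted p was 0.0510, the single alternative of 12 that ended the call.

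Actn3 followed at 1264 and 739 CPM in ML3 and FL1, against 510, 145 and 55.5 in MR1, MR2 and FR2 (-2.67 ± 0.36, edgeR adjusted p = 3.4e-10). ML2 had 550 CPM from 9 UMIs, above the right pools. The call ended without FL1 (edgeR adjusted p = 0.114) or FR2 (0.0774). Casq1 was at 729 and 336 CPM in the left pools, and at 275, 87.2 and 52.3 in the same right pools (-2.20 ± 0.40, edgeR adjusted p = 2.2e-05), and lost its call without FL1 (0.282) or FR2 (0.231). ML2 had 61.1 CPM of Casq1 from 1 UMI, within the range of the right pools. For these 2 genes the right pools spread widely, with FR2 lowest. Myl1, the fast myosin light chain, averaged 1233 ± 319 CPM in left and 519 ± 161 in right pools, and Mybpc2 1041 ± 522 and 381 ± 116. H19 averaged 2376 ± 1110 and 982 ± 540. ENSRNOG00000006471, which has no symbol in the gene list, was at 20.6 CPM in FR2 and at 203 to 389 in the other 4 pools. In the left pool ML2, Myl1 and Mybpc2 were both at 122 CPM from 2 UMIs, below every right pool, H19 was at 1160 CPM, within their range, and ENSRNOG00000006471 was at 61.1 CPM from 1 UMI. The call of each of these 4 genes was lost in at least 6 of 12 alternatives.

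**Figure D4:**
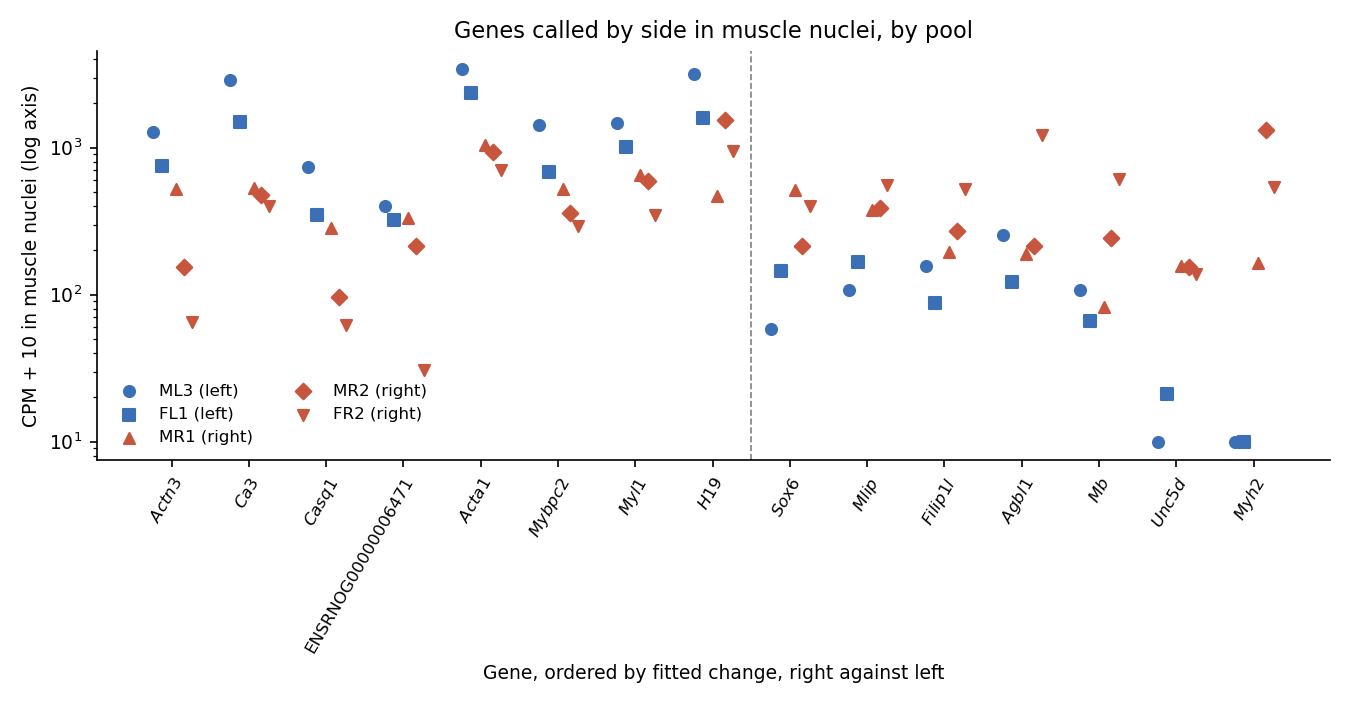
Level of genes called by side (1 of the 16 is not shown) in the muscle nuclei of the 5 pools, as CPM + 10 on a log axis, coloured by side, with genes lower in right pools left of the dashed line. For Ca3, Acta1 and Actn3 both left pools lie above all 3 right pools, and Myh2 sits at 0 CPM in ML3 and FL1.

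Of the 8 genes higher on the right, Myh2 held best. It was at 154 CPM in MR1, 1308 in MR2 and 531 in FR2, and at 0 in both ML3 and FL1. Against the limit of 3 UMIs over both left pools it was at least 18.5-fold higher (edgeR adjusted p = 4.0e-12), and ML2 had 122 CPM from 2 UMIs. It was called under 11 of 12 alternatives, DESeq2 excepted (adjusted p = 0.825). In the other nuclei of ML3 and FL1 Myh2 was at 0.669 and 0.594 CPM. In those of MR1, MR2 and FR2 it was at 1.73, 3.85 and 15.1 CPM. Myh4 in these nuclei was at 30.8 and 50.6, and at 82.8, 22.3 and 204 CPM in the same order. Mb was at 97.2 and 56.0 CPM in ML3 and FL1, and at 72.8, 232 and 603 in MR1, MR2 and FR2, so the sides overlapped, and its call ended without FR2 (edgeR adjusted p = 0.976). Agbl1, a cytosolic carboxypeptidase, was at 1220 CPM in FR2 and at 112 to 243 in the other 4 pools. Without FR2 its fold change turned to -0.40 on the log2 scale.

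Mlip (127 ± 42.1 CPM in left and 430 ± 103 in right pools), Filip1l (112 ± 47.7 and 321 ± 172) and Sox6, a repressor of slow fibre genes (91.5 ± 60.7 and 366 ± 151), each lost the call in at least 8 of 12 alternatives. Their values in ML3 came from 2, 3 and 1 UMIs. ML2 had 611 CPM of Mlip, above every right pool, 183 of Filip1l, below every right pool, and 244 of Sox6, within their range. Unc5d, a netrin receptor, had 5.60 ± 7.92 CPM in left and 140 ± 9.81 in right pools, but 185 to 227 CPM in the other nuclei of those pools. The left level rests on 1 UMI in FL1 and 0 in ML3, which allows up to 146 CPM (3 UMIs). Unc5d lost the call in 8 of 9 alternatives. ML2 had 427 CPM from 7 UMIs, above every right pool, and the log2 fold change of 3.78 was 0.97 with ML2 in the fit and 0.02 with the rule at 5 UMIs and 0.5%.

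Read by list, the fast fibre genes had 9 members tested by side, of which 1 rose (Myh2) and 2 fell (Actn3, Mybpc2), with a median log2 fold change of -1.01. The thick filament list had 9 tested, 1 higher and 2 lower (median -0.85), the thin filament list 10 tested, 0 higher and 1 lower (median -0.76), and the coupling list 9 tested, 0 higher and 1 lower (median -0.56). Over all genes tested the median was 0.02. The metabolism list had 12 tested, 1 higher (Mb) and 0 lower (median -0.22). Of the slow fibre list 2 genes were tested and 0 were called. Of the fibre type factors 8 were tested, 1 higher (Sox6) and 0 lower (median 0.85). Among lists of other cell types, the 4 myelinating Schwann genes tested had a median of 1.24, the furthest from 0 of these lists, and the 9 neuron genes tested had a median of -0.21 with 0 called. Their part in the calls was not tested.

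By labelled sex 7 genes were called by edgeR, 4 higher in female-labelled pools (0.124% of genes tested) and 3 lower (0.0928%), with 90 at an unadjusted p under 0.05. DESeq2 called 0, with 12 at an unadjusted p under 0.05. Mt-co2, a subunit of cytochrome oxidase, was at 112 and 254 CPM in FL1 and FR2, against 0, 72.8 and 58.1 in ML3, MR1 and MR2. The value of FL1 came from 10 UMIs and that of MR2 from 2. The 0 in ML3 allows up to 146 CPM (3 UMIs), above FL1, so a lack of overlap is not settled. In the other nuclei of FL1 and FR2 Mt-co2 was at 109 and 86.4 CPM, and in those of ML3, MR1 and MR2 at 58.6, 85.2 and 44.7. Another 5 (Mb and Agbl1 higher, Actn3, Casq1 and ENSRNOG00000006471 lower) were also called by side. The female-labelled group was FL1 and FR2, and the Y-linked transcripts of FL1 go against its label. Without FR2, FL1 alone was left in that group. The log2 fold change of Mb then turned from 2.15 to -0.73 and that of Agbl1 from 2.20 to -1.05. Actn3 went from -1.81 to -0.72, Casq1 from -1.61 to -1.06 and ENSRNOG00000006471 from -2.26 to -0.26. Left out, FL1 gave 14 calls, and without FR2 there was 1, without MR1 0 and without ML3 15.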

How the data were processed

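The authors deposited raw transcript counts (UMIs) per nucleus and gene for 36741 nuclei and 30560 genes, with a gene list and a table of nuclei that gives pool, well and transcript count. UMIs summed per nucleus matched that table in 36741 nuclei. Per the submitters' processing notes, mRatBN7.2, R 4.3.2 and Seurat 4.1.3 were used. For the aligner, annotation and barcode filter: not given in the sources used here. GEO's samples are the 8 sublibraries. Sex, side and number were read from the pool names.

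Muscle nuclei were taken by the rule above, and no doublet caller was run. The members and gene lists were chosen with earlier results of these data known. CPM are UMIs per 1000000 UMIs of the same nuclei, summed per pool where pools are named. Genes were tested on summed counts with edgeR 4.0.16 under R 4.3.3 (TMM, filterByExpr, side and sex as additive terms, Benjamini-Hochberg adjustment, adjusted p under 0.05), after a check on simulated data. SE is the size of the log2 fold change divided by the square root of F. Pools needed at least 10 muscle nuclei. Alternatives used DESeq2 1.42.0, other filters, other limits of the rule and single pools left out. Shares were compared by exact two-sided permutation tests in Python 3.11.15 with labels permuted within the other factor. Named were genes of the lists, all genes called (at most 10 per direction) and the 20 largest folds. The planned comparison of nuclei led by slow and fast myosin could not be made, with 0 led by Myh7, and the planned 4-myosin comparison used 3 because Myh1 has no entry by symbol. Promoters were matched by symbol to RefSeq (GRCr8), and no coordinate of the files' build was used. Some called or listed genes are not reported here.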

Additional observations from a re-analysis of the deposited data

Results flagged for a closer look

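In groups of 6 pools (left, right, male-labelled and female-labelled), values far from the rest of their group were sought for 3 measures. That made 12 checks, of which chance flags about 1 in 20. Each pool is in a side group and a sex group, so 1 value can be flagged in both. FR2 stood apart in both the right and the female-labelled pools in the share of muscle nuclei (7.33%), in the Ttn and Neb level of its other nuclei (1055 CPM) and in their Myh4 level (204 CPM). MR1 stood apart among the male-labelled pools in the same measures, with 1.89% muscle nuclei, 375 CPM of Ttn and Neb and 82.8 CPM of Myh4 in its other nuclei. The measures move together in both pools and were not tested apart.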

How the results depend on the processing

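Over 19 alternatives the share of muscle nuclei by side kept its direction and passed under none. By sex it turned to -1.05 on the log2 scale and to -0.335 percentage points without FR2. Leaving out each pool in turn gave 0.118 to 1.58 points by side and -0.335 to 1.13 by sex. Counts of genes called by side were 3 with DESeq2, 10 without the low-count filter, 6 with at least 5 nuclei per pool, 7 without ML1 and FL1, and 6 (without FR2) to 21 (without ML3) when single pools were left out. By sex they were 0, 5, 4, 14 and 0 (without MR1) to 15 (without ML3). Where a side was left with 1 pool, that pool was assumed to vary like the others. Myh7 by side turned to -0.52 points with at least 5 nuclei per pool. Myh2 by sex turned from -2.76 to 1.56 (at least 20 nuclei), 1.22 (20 UMIs and 2%) and 0.323 (without ML1 and FL1), with -5.85 to 2.32 when single pools were left out. Myh4 by sex turned from 2.84 to -1.38, -0.963 and -0.392, with -2.31 to 6.07. Myh7 by sex turned from -0.0784 to 0.0892 (mean over nuclei) and 0.0689 (without ML1 and FL1), with -0.226 to 0.0689. With single pools left out, Agbl1 by side ranged from -0.40 (without FR2) to 3.44, Agbl1 by sex from -1.05 (without FR2) to 2.79, and Mb by sex from -0.73 (without FR2) to 2.57 on the log2 scale. Agbl1 by side was also at -0.32 without FL1, and ML1 was in no edgeR fit. The causes were not tested. Left and right pools of 1 number as pairs (replicate block) gave 1.26 points and an exact sign-flip p of 0.406. Deviations of same-numbered pools correlated at -0.317 to 0.319, with mixed signs. They were not set against differently numbered pools, so this cannot tell whether same-numbered pools share rats. In edgeR the block could not be fitted, because no number had both pools with 10 nuclei, nor could at least 20 nuclei per pool or the rule at 20 UMIs and 2%, which leave no residual degrees of freedom. Depth was unequal among the 5 pools tested, from 20566 UMIs of muscle nuclei in ML3 to 630449 in FR2.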
